A study of Bos taurus with 8 samples.

Results

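Satellite cells (SCs), the muscle stem cells, were compared between cultures that had been sorted for them and unsorted cultures in which fibro-adipogenic progenitors (FAPs) outnumbered them. The members were the cells of the passage 2 library that the authors' annotation calls SCs and that came from donors 5, 6 and 10 (sorted SC cultures) or donors 1, 2 and 9 (unsorted cultures). They were 3816 of the 8966 cells at passage 2 and of the 36129 cells of the series, 3299 of them from sorted and 517 from unsorted cultures. The series is a droplet single-cell RNA sequencing time course of cells from the semitendinosus muscle of 10 Belgian Blue cattle, followed from tissue through proliferation. At each passage the cells of all donors were pooled into 1 library and assigned back to their donors by genotype. All 6 cultures compared here were plated at passage 0 on fibronectin without a sort and were kept in the same serum-free growth medium. At passage 0 the cells of donors 5, 6 and 10 were sorted for SCs, while donors 1, 2 and 9 stayed unsorted. The paper's general methods give ITGA7+/ITGA5- cells lacking CD45 and JAM-1 as the SC gate. They give laminin as the coating for SCs and fibronectin for unsorted cells. They do not state the gate and coating of the sequenced SC cultures separately. The paper also describes a CD29+/NCAM1+ gate of earlier studies and a collagen coating as a control. Donor 5 was a female calf, donor 6 an adult male and donor 10 a male calf. Donor 1 was an adult female, donor 2 a female calf and donor 9 an adult female. The sort, any difference in coating, the animals and the presence of FAPs therefore cannot be told apart. Sex overlaps with them except in donor 5, the only female of the sorted group. Each donor gave 1 culture, and p-values measure the spread between the 3 donors of a group.

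SCs carry the transcription factors PAX7 and MYF5, divide once activated, and then leave the cycle and fuse into myotubes under MYOD1 and MYOG. FAPs are the mesenchymal cells of muscle and make its collagen-rich matrix, together with growth factors, cytokines and Wnt regulators that act on SCs. In muscle the number of FAPs rises and falls with injury, and in culture they compete with SCs for space.

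The cells of both groups carried the markers of their label. MYF5 lay between 146 and 157 CPM (counts per 1e6, the UMIs of the gene for each 1e6 UMIs of the donor's SCs, by plain totals in this paragraph and scaled by TMM library factors in the gene comparisons) in sorted and between 93.9 and 127 CPM in unsorted cultures, against 2.90 CPM in the FAPs of the same library. PAX7 lay between 4.38 and 4.97 CPM and between 2.11 and 6.10 CPM, against 0.0199 CPM in FAPs, and rests on few UMIs in unsorted SCs. MYOD1 lay between 47.1 and 178 CPM and between 25.1 and 76.0 CPM, and NCAM1 between 68.4 and 163 CPM and between 37.7 and 87.9 CPM. DES lay between 57.2 and 438 CPM and between 58.3 and 261 CPM, and CDH15 between 3.72 and 7.64 CPM and between 2.11 and 4.66 CPM. ITGA7, the integrin of the SC gate in the paper's methods, lay between 184 and 281 CPM and between 70.7 and 153 CPM. The markers PECAM1 (endothelium), RGS5 (mural cells) and PTPRC (leukocytes) were at 0 in the SCs of all 6 donors. The summed level of 15 endothelial markers was 9.36 to 18.1 CPM in sorted and 8.36 to 9.95 CPM in unsorted cultures, that of 14 macrophage markers 7.08 to 7.97 against 5.02 to 13.0 CPM, and that of 10 glial markers 35.5 to 60.4 against 76.2 to 125 CPM. The 11 mural markers, among them contractile genes that SCs express too, summed to 504 to 1355 CPM and 352 to 727 CPM. The part of such cells in the results below was not tested.

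The sorted cultures gave more cells and deeper cells. The SC counts were 1125, 1085 and 1089 in donors 5, 6 and 10, and 223, 122 and 172 in donors 1, 2 and 9. Their summed UMIs were 31783784, 23552927 and 31734911 against 4185599, 2787863 and 3316885. The median UMI count of a cell was 27795, 20507 and 27667 against 17761, 20497 and 18669, so donor 6 stood beside donor 2. The libraries of passages 0 and 2 shared 26 cell barcodes, those of passages 0 and 5 shared 29 and those of passages 2 and 5 shared 24.

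FAPs made up 1.66%, 0.641% and 1.09% of the cells in the sorted cultures of donors 5, 6 and 10, and 75.9%, 88.9% and 81.0% in the unsorted cultures of donors 1, 2 and 9. The mean was 1.13% ± 0.511 (SD, n = 3) against 82.0% ± 6.55 (SD, n = 3). The groups did not overlap, and the exact two-sided permutation test gave p = 0.1, the smallest that 3 against 3 allows. The SCs compared below had thus grown with few or with many FAPs around them.

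How much of an SC profile could be RNA of FAPs was bounded with genes that FAPs express strongly. If a share of an SC profile were FAP RNA, every such marker would stand in SCs at no less than that share of its FAP level, so the marker with the lowest ratio of SC level to FAP level bounds the share, within the counting error of that marker. In sorted cultures this marker was SCARA5, a scavenger receptor of fibroblasts, and its ratio was 1.12%, 1.46% and 1.15% in donors 5, 6 and 10, without allowance for counting error. In unsorted cultures the SC totals were smaller, fewer markers were well counted, and COL1A1 had the lowest ratio among them at 23.8%, 14.2% and 16.9% in donors 1, 2 and 9. The means were 1.24% ± 0.187 (SD, n = 3) and 18.3% ± 4.98 (SD, n = 3), with exact two-sided permutation p = 0.1, but 23 or 24 markers were well counted in the sorted donors and 8 to 12 in the unsorted ones. With only the markers giving 100 UMIs at 1% FAP RNA the means were 8.75% and 18.3%, and with the FAPs of the same donor 8.85% and 17.4%, each with exact permutation p = 0.3. With both changes the means were 28.1% and 17.4%, the sorted donors then having the higher bound (exact permutation p = 0.2), so the order of the groups by this ratio depends on the markers and the reference. Any COL1A1 that SCs make themselves raises this bound, so a closer one was taken from markers with lower ratios and an upper limit on their own counts.

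That bound, called here the counting limit, took the 95% exact Poisson upper limit of each marker's UMIs, adjusted over all markers, and kept the lowest. It was 1.84%, 2.42% and 1.89% in donors 5, 6 and 10. It was 7.71%, 8.33% and 5.52% in donors 1, 2 and 9, set by 25 UMIs of DPT (dermatopontin, a matrix protein) in donor 1, 8 UMIs of SCARA5 in donor 2 and 11 UMIs of DPT in donor 9. With the FAPs of the same donor in place of all FAPs of the library as the reference, it was 2.70%, 2.85% and 3.03% against 11.4%, 8.27% and 10.2%. That reference rested on only 19, 7 and 12 FAPs in the sorted cultures against 704, 980 and 733 in the unsorted ones, and its own counting error is not in the limit. FAP marker genes took a median of only 1.18%, 1.92% and 0.738% of the UMIs in these few cells of donors 5, 6 and 10, against 3.62% to 5.44% in the FAPs of the unsorted donors and 0.733%, 1.44% and 0.569% in the SCs of the same 3 donors, so their label rests weakly on these markers. RNA free in the droplet run reaches the cells of all donors. The limits of the unsorted SCs bound free FAP RNA together with FAP RNA from any other source. The limits of the sorted SCs bound free FAP RNA in sorted SCs. They carry over to unsorted SCs, scaled by the UMIs of a cell, only if droplets take up similar amounts, which was not tested. Unsorted SCs held fewer UMIs, with medians of 17761 to 20497 against 20507 to 27795. How much of their limit was free RNA was not tested. Donor genotypes do not reveal a droplet that held an SC and a FAP of 1 donor, and the part of such droplets was not tested beyond the bounds above.

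**Figure D1:**
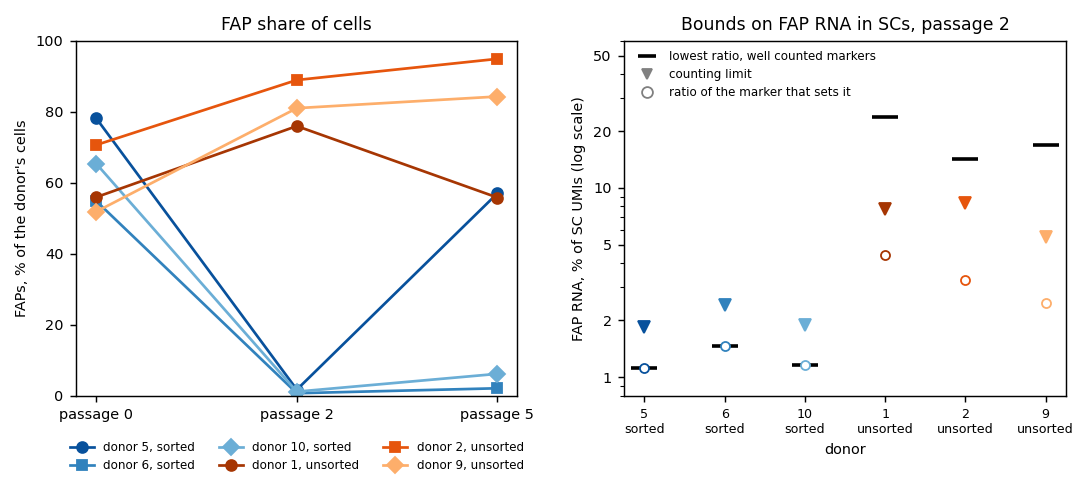
The left panel plots FAPs as a percent of each donor's cells at passages 0, 2 and 5. The right panel plots bounds on the share of FAP RNA in each donor's SCs at passage 2 on a log axis, as a percent of SC UMIs, with the bar for the lowest ratio among well counted markers, the triangle for the counting limit and the open circle for the ratio of the marker that sets that limit. The sorted cultures lie at 0.641% to 1.66% FAPs at passage 2 against 75.9% to 88.9%, and their counting limits at 1.84% to 2.42% against 5.52% to 8.33%.

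SCs of the sorted and unsorted cultures differed in 855 of 11378 tested genes at passage 2 (7.51%). Cytokines, interferon response genes and immediate early genes were among the 508 genes lower in sorted cultures (4.46%), and genes of DNA replication and mitosis were among the 347 higher (3.05%). A gene was called where edgeR's quasi-likelihood test gave a Benjamini-Hochberg adjusted p under 0.05 and the absolute log2 fold change, sorted minus unsorted, exceeded 1. The donors of one group lay above all donors of the other in 504 of the 508 genes lower in sorted cultures, against 19.1% of all tested genes, and in 347 of the 347 higher ones, against 19% (38.1% in either direction). The call was made from the same donor levels and favours such genes, so the shares among called genes are a description.

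The number of calls rested on 2 unsorted donors. Without donor 1, 1 gene was called, and without donor 9, 109 genes were. Without donor 5, 298 genes were called, and without donor 10, 572. All 855 genes kept their sign without donor 1, 852 of them with an unadjusted p under 0.05, and the median absolute log2 fold change over them was 1.69 against 1.74. They were chosen in the fit that held the same remaining donors, so these values are a description and no separate support. Of the 143 called genes in the gene lists described below, none was called again without donor 1, 29 without donor 9, 44 without donor 5 and 79 without donor 10, where 13 other list genes were called, so each count at passage 2 below rests on donor 1. Donor 2, which had the highest FAP share and the fewest SCs, lay nearest to the sorted donors in many of the genes below.

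The 12 genes with the largest fold change among those lower in sorted cultures, chosen among genes with at least 10 CPM in unsorted SCs and groups that do not overlap, held the 3 chemokines CXCL8, CCL20 and CCL26 and the Wnt antagonist SFRP4. SFRP4, a secreted protein, was at 35.6, 278 and 107 CPM in donors 5, 6 and 10 and at 4143, 792 and 4125 CPM in donors 1, 2 and 9 (log2 fold change -4.43, SE 0.99, adjusted p = 0.036). SFRP4 was at 1848 CPM in the FAPs, less than in the SCs of donors 1 and 9. GPR84, a receptor for medium-chain fatty acids, was at 0.183, 1.34 and 0.757 CPM against 27.6, 19.0 and 23.4 CPM (log2 fold change -4.98, SE 0.57, adjusted p = 0.011). Its 3 unsorted donors lay close together, far above the sorted ones, and its FAP level was 10.4 CPM. STEAP4, a metalloreductase, showed the same arrangement at 0.458, 2.36 and 1.27 CPM against 32.0, 23.1 and 23.4 CPM, a log2 fold change of -4.30.

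Chemokines spread more among the unsorted donors. CXCL8, which draws neutrophils, was at 0.305, 1.75 and 1.21 CPM in sorted and at 48.1, 2.60 and 39.4 CPM in unsorted cultures (log2 fold change -4.84), with donor 2 just above donor 6. CCL20, which draws lymphocytes and dendritic cells, was at 1.62, 7.07 and 4.06 CPM against 40.5, 39.8 and 171 CPM (log2 fold change -4.31). CCL26 was at 1.22, 1.34 and 1.12 CPM against 3.66, 45.0 and 14.7 CPM (log2 fold change -4.06), and here donor 1 was the lowest of the unsorted donors. OAS1Y, an interferon-induced sensor of double-stranded RNA, was at 1.22, 2.36 and 1.12 CPM against 89.1, 2.97 and 71.8 CPM (log2 fold change -5.16, SE 1.05, adjusted p = 0.030). OAS1Y has near-identical relatives in cattle, so the split of reads among them is uncertain, and in donor 2 it stood no higher than a few CPM.

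The remaining 5 were RAMP3 (a receptor partner, log2 fold change -4.48), TRPA1 (a cation channel, -4.39), SLC11A1 (a metal transporter of phagocytes, -4.33), GPX3 (a secreted glutathione peroxidase, -4.12) and SCNN1D (a sodium channel subunit, -4.06). RAMP3 was at 0.24, 1.46 and 0.48 CPM against 20.2, 5.58 and 21.2 CPM, and SCNN1D at 0.397, 1.67 and 1.09 CPM against 21.5, 10.0 and 19.9 CPM. TRPA1 was at 0.885, 5.90 and 1.27 CPM against 74.7, 23.1 and 65.1 CPM. In each of these 3 genes donor 6 was the highest sorted donor and donor 2 the lowest unsorted donor. With age class as a covariate, OAS1Y (log2 fold change -3.84), CXCL8 (-3.70), SLC11A1 (-3.62) and CCL20 (-3.85) lost the call. The other leading lower genes kept it. With sex as a covariate only GPR84, STEAP4, RAMP3 and SCNN1D kept the call. The other leading lower genes lost it, at log2 fold changes from -6.60 (CXCL8) to -4.05 (CCL26). Of all 855 called genes, 416 were called again in the same direction with sex as a covariate.

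**Figure D2:**
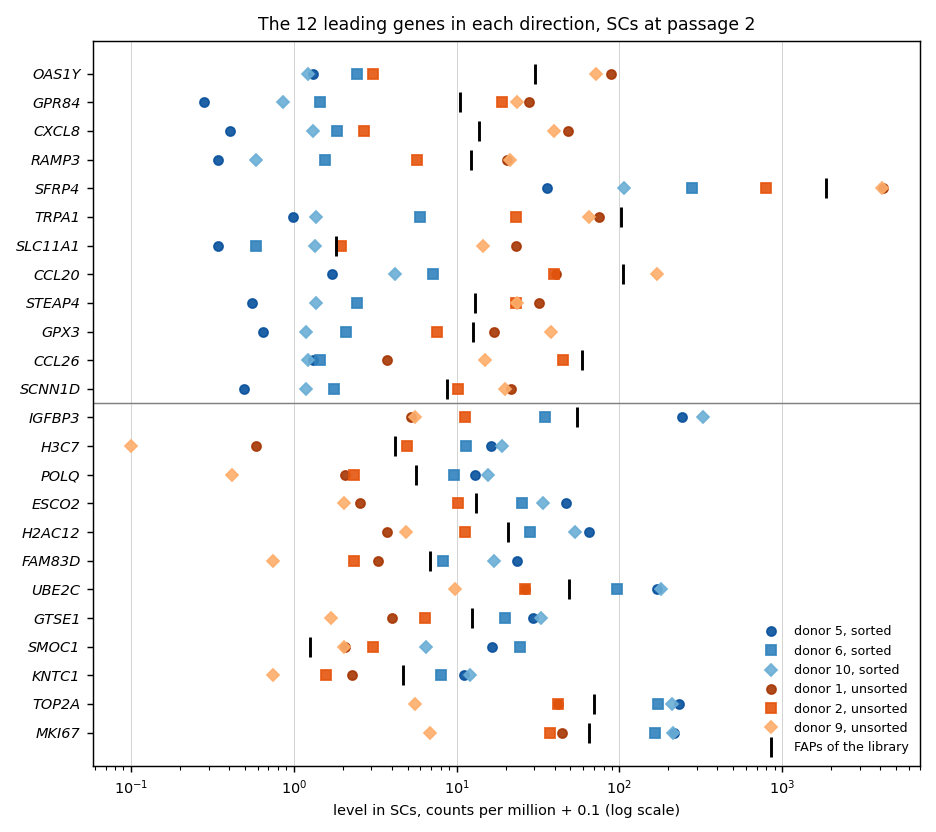
CPM plus 0.1 on a log axis of the 12 genes with the largest fold change in each direction, 1 point per donor, with a black tick for the FAPs of the library. The 24 genes were chosen so that the groups do not overlap, and in SFRP4, GPR84 and STEAP4 the SCs of donors 1 and 9 lie above the FAP tick.

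FAP RNA at the counting limit was less than 10% of the level in unsorted SCs for 336 of the 508 genes lower in sorted cultures and less than 50% for 480, with a median of 7.19%. For 28 genes it could be 50% or more. With the FAPs of the same donor as the reference, 257 genes were under 10%, 466 under 50% and 42 at 50% or more, with a median of 9.86%. In 254 of the 508 genes the mean level in unsorted SCs was higher than in the FAPs. All 508 were called for a high level in unsorted SCs, which lowers the FAP part. The share over all tested genes was not computed. Of the 347 genes higher in sorted cultures 131 were under 10% and 339 under 50% with all FAPs as the reference, with a median of 11.7%. For SFRP4 the highest FAP part was 4.40% over the 3 unsorted donors and 19.4% in donor 2, for GPR84 it was 3.21%, and for TRPA1, whose FAP level was 102 CPM, it was 13.5%. For OAS1Y it was 3.99% over the 3 donors and 85.0% in donor 2. With the FAPs of the same donor as the reference it was 3.78% over the 3 donors and 9.86% in donor 2.

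When FAP RNA was subtracted from each donor's SCs at its counting limit, 732 genes were called, 337 higher and 395 lower in sorted cultures. Of the 508 lower genes 376 were called again, and of the 347 higher genes 319. When it was subtracted at the looser limit set by COL1A1 in unsorted cultures, 594 genes were called, and 275 and 225 of the same genes remained. That limit was looser in the unsorted donors alone, at 14.2% to 23.8% against 5.52% to 8.33%. In the sorted donors the SCARA5 ratio of 1.12% to 1.46% was subtracted, less than their counting limit of 1.84% to 2.42%. Of the 12 leading lower genes, CXCL8, SFRP4, TRPA1 and CCL20 lost the call under the first subtraction, and OAS1Y in addition under the second. CCL26, of which up to 100% could be FAP RNA in donor 1, fell under the low-count filter after either subtraction and has no value there. The log2 fold changes of the other 11 genes lay between -5.87 and -4.33 after the first subtraction. It also lowers the low sorted levels, which can enlarge these fold changes. In donor 5 the FAP part of these genes at the counting limit ran from 12.9% (SLC11A1) to 100% (GPR84, TRPA1 and CCL20). SCs with high FAP marker content, which were 0.8%, 9.12% and 0.459% of the SCs in donors 5, 6 and 10 and 9.42%, 3.28% and 5.81% in donors 1, 2 and 9, were then left out, and 848 genes were called without them, 790 of the 855 among them.

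**Figure D3:**
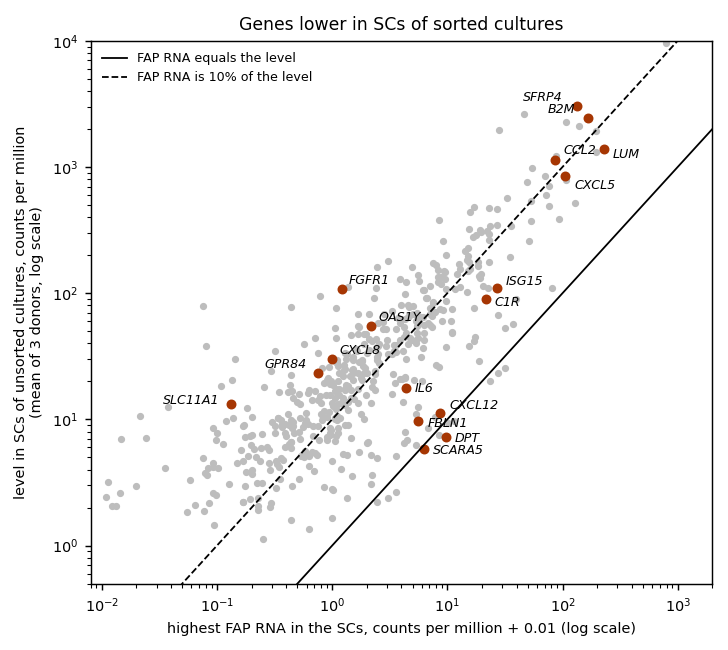
Each point is 1 of the 508 genes lower in sorted cultures, with the highest CPM that FAP RNA could give at the counting limit, plus 0.01, on the horizontal axis and the mean CPM in unsorted SCs on the vertical axis, both on log scales. The solid line marks equal values and the dashed line a FAP part of 10%, and 336 genes have a smaller part and 28 have a FAP part of 50% or more.

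The total FAP marker content of SCs overlapped between the groups. FAP marker genes took a median of 0.733%, 1.44% and 0.569% of an SC's UMIs in donors 5, 6 and 10 and 1.41%, 0.887% and 1.19% in donors 1, 2 and 9 (exact two-sided permutation p = 0.5), with donor 6 the highest of all 6, and their summed level was 6816 to 16441 CPM against 11628 to 17584 CPM. Of 28 tested markers 10 were lower and 1 higher in sorted cultures, with a median log2 fold change of -1.19, against a median of 0.00 over all tested genes. LUM, a keratan sulfate proteoglycan of the matrix, was at 393, 593 and 493 CPM in sorted and at 1708, 993 and 1441 CPM in unsorted cultures (log2 fold change -1.49). C1R, a complement protease, was at 8.15, 24.4 and 9.79 CPM against 115, 49.1 and 107 CPM (log2 fold change -2.69). DCN, the proteoglycan decorin and the most abundant marker in FAPs at 9139 CPM, was at 725, 2003 and 1163 CPM against 4562, 1731 and 3795 CPM and did not pass the test (log2 fold change -1.37, adjusted p = 0.11), with donor 6 above donor 2. THY1, a surface glycoprotein of mesenchymal cells, went the other way at 56.0, 74.2 and 66.5 CPM against 16.6, 19.3 and 16.0 CPM (log2 fold change 1.92, SE 0.15, adjusted p = 0.0098), with 285 CPM in the FAPs. After subtraction at the counting limit 4 of 26 tested markers were lower and 1 higher, with a median of -0.47. After subtraction at the looser limit the median was 0.08, with 5 higher and 1 lower. Without the SCs high in FAP markers, 7 of 28 were lower, with a median of -0.72, and with sex as a covariate 6 of 29 were. Among SCs called G1 alone 2 of 28 were lower and 1 higher, while 18 had an unadjusted p under 0.05 by edgeR. These markers set the limits themselves, so their values after subtraction are a description.

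Of 27 tested growth factors and cytokines 12 were lower and 1 was higher in sorted cultures, with a median log2 fold change of -1.36. CCL2, which draws monocytes, was at 28.3, 169 and 89.6 CPM against 1302, 736 and 1384 CPM (log2 fold change -3.58, SE 0.67, adjusted p = 0.025), and its FAP level was 1195 CPM. CXCL5, a neutrophil chemokine, was at 27.0, 188 and 43.9 CPM against 1006, 589 and 933 CPM (log2 fold change -3.29, SE 0.78, adjusted p = 0.041), with 1471 CPM in FAPs. The groups did not overlap in either gene, and donor 6 was the highest of the sorted ones.

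IL6, an inflammatory cytokine, was at 1.25, 2.11 and 1.39 CPM against 14.4, 4.46 and 34.3 CPM (log2 fold change -3.50). WNT5A, a non-canonical Wnt ligand, was at 2.53, 5.61 and 7.12 CPM against 30.5, 18.2 and 32.1 CPM (log2 fold change -2.41). The other lower members were CSF2, BTC, BDNF, EREG, CXCL8, CCL20, CXCL2 and CXCL16, and CXCL2 has a near-identical neighbour, so its reads are uncertain. FGF18, a fibroblast growth factor, was the member higher in sorted cultures, at 3.17, 3.09 and 2.91 CPM against 0.488, 0 and 0.321 CPM (log2 fold change 3.32). After subtraction of FAP RNA at the counting limit 6 members were lower, EREG, BTC, CXCL16, CSF2, BDNF and WNT5A, and with age class or sex as a covariate 8 or 7 members of the list were lower. After that subtraction CCL2 had a log2 fold change of -3.94 with an adjusted p of 0.065 and CXCL5 one of -3.75 with an adjusted p of 0.17.

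Interferon response genes were lower in sorted cultures in 15 of 29 tested members and higher in none, with a median log2 fold change of -1.55. IRF1, a transcription factor induced by interferon, was at 4.09, 12.9 and 8.30 CPM against 54.9, 30.1 and 59.9 CPM (log2 fold change -2.53, SE 0.46, adjusted p = 0.022). IFIH1, which senses double-stranded RNA, was at 3.05, 10.1 and 6.09 CPM against 94.7, 23.4 and 61.9 CPM (log2 fold change -3.25). B2M, the light chain of MHC class I, was at 700, 823 and 1425 CPM against 2858, 1728 and 2750 CPM (log2 fold change -1.32), and PSMB8, a subunit of the immunoproteasome, had a log2 fold change of -1.47. Donor 1 was the highest and donor 2 the lowest unsorted donor in B2M and IFIH1, and no sorted donor reached donor 2.

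ISG15, a ubiquitin-like protein, was at 9.77, 19.1 and 8.88 CPM against 189, 23.4 and 116 CPM (log2 fold change -3.14), and its FAP level of 376 CPM was above that of the SCs. IFI6, a mitochondrial interferon target, was at 15.2, 35.4 and 21.8 CPM against 288, 40.9 and 197 CPM (log2 fold change -2.87). For both, donor 2 stood just above donor 6, and the contrast lay in donors 1 and 9. After subtraction at the counting limit 10 members were lower (IRF1, IRF7, IRF9, IFIH1, PSMB8, OAS1Y, HERC5, PARP14, XAF1 and LGALS3BP), and 3 at the looser limit (IRF7, IRF9 and LGALS3BP), while the median of the list was -1.60 and -1.56. With age class as a covariate 7 of 32 tested members were lower, and with sex 6 of 35, with medians of -1.52 and -2.46.

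Immediate early genes, transcribed within minutes of a stimulus, were lower in sorted cultures in 11 of 26 members and higher in none, with a median log2 fold change of -0.95. FOS was at 17.4, 21.2 and 10.2 CPM against 61.7, 32.3 and 67.6 CPM (log2 fold change -1.74). EGR1 was at 91.5, 132 and 94.98 CPM against 252, 177 and 260 CPM (log2 fold change -1.11). FOSB, NR4A1 and NR4A2 had log2 fold changes of -3.97, -2.71 and -2.62. In FOS and EGR1 donor 2 was again the lowest unsorted donor, and the groups did not overlap.

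Genes of the cell cycle were higher in sorted cultures. Of 43 S phase genes 26 were higher and none lower, with a median log2 fold change of 1.43, and of 47 mitosis genes 40 were higher and none lower, with a median of 2.18. With sex as a covariate 10 and 20 of them were higher, with medians of 1.49 and 2.29 and all 43 and 47 genes positive. MKI67, a marker of dividing cells, was at 215, 165 and 214 CPM against 44.4, 37.5 and 6.73 CPM (log2 fold change 2.73). TOP2A, the topoisomerase that untangles chromosomes, was at 232, 172 and 209 CPM against 42.0, 42.0 and 5.45 CPM (log2 fold change 2.77). After FAP RNA subtraction at the counting limit MKI67 (log2 fold change 2.89, adjusted p = 0.059) and TOP2A (2.95, adjusted p = 0.077) lost the call. Both also lost it with age class as a covariate (2.59 and 2.61, adjusted p = 0.084 and 0.094) and with sex (2.87 and 2.97, adjusted p = 0.12 and 0.13). PCNA, the clamp of the replication fork, was at 156, 106 and 174 CPM against 41.5, 70.6 and 41.0 CPM (log2 fold change 1.52). Donor 9 was the lowest donor in the first 2 of these genes, and no unsorted donor reached a sorted one in any of the 3.

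The deposited phase calls moved with these genes. SCs called G1 were 47.0%, 63.8% and 38.02% in donors 5, 6 and 10 and 88.8%, 78.7% and 91.9% in donors 1, 2 and 9. Among G1 SCs alone, 203 of 10492 genes were called (1.93%), 40 higher and 163 lower, and 154 of the 508 lower genes and 37 of the 347 higher genes were among them. No S phase gene of 36 tested and 3 mitosis genes of 40 were then called by edgeR, with medians of 0.34 and 0.53, while 8 and 18 of them had an unadjusted p under 0.05. UBE2C, a ubiquitin-conjugating enzyme of the anaphase, kept a log2 fold change of 1.49 (adjusted p = 0.029) in G1 SCs, from 2.84 in all SCs. CENPF, a kinetochore protein, kept one of 1.56 (adjusted p = 0.030) from 2.65. MKI67 was at 0.56 (adjusted p = 0.40) and CDK1 at -0.43 in G1 SCs. Of the 508 lower genes, all 484 tested among G1 SCs kept their sign, and the interferon list had a median of -1.58 there, with 3 of 29 lower. Of the growth factors and cytokines 1 of 24 was lower in G1 SCs, with a median of -0.75, and of the immediate early genes 5 were. The phase was called from some of these same genes, so this split is a description.

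Of the 12 genes with the largest fold change among those higher in sorted cultures, most serve division: the kinesin partner FAM83D, the cohesin acetyltransferase ESCO2, the polymerase POLQ, GTSE1, KNTC1, UBE2C, TOP2A, MKI67 and the histone genes H3C7 and H2AC12, whose reads are uncertain because the histone copies are nearly identical. IGFBP3, a carrier of insulin-like growth factors, and SMOC1, a matrix protein that binds BMP regulators, were the others. IGFBP3 was at 242, 34.8 and 326 CPM against 5.12, 11.2 and 5.45 CPM (log2 fold change 4.83, SE 0.94, adjusted p = 0.027), with donor 6 well below the other sorted donors. Up to 54.7% of its low level in unsorted SCs could be FAP RNA, since the FAPs held 55.1 CPM. SMOC1 was at 16.4, 24.3 and 6.36 CPM against 1.95, 2.97 and 1.92 CPM (log2 fold change 2.80), and in G1 SCs alone it had a log2 fold change of 3.26 (adjusted p = 0.033). With sex as a covariate IGFBP3 (log2 fold change 5.11), SMOC1 (2.88), H3C7 (3.37), MKI67 and TOP2A lost the call. The other leading higher genes kept it.

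**Figure D4:**
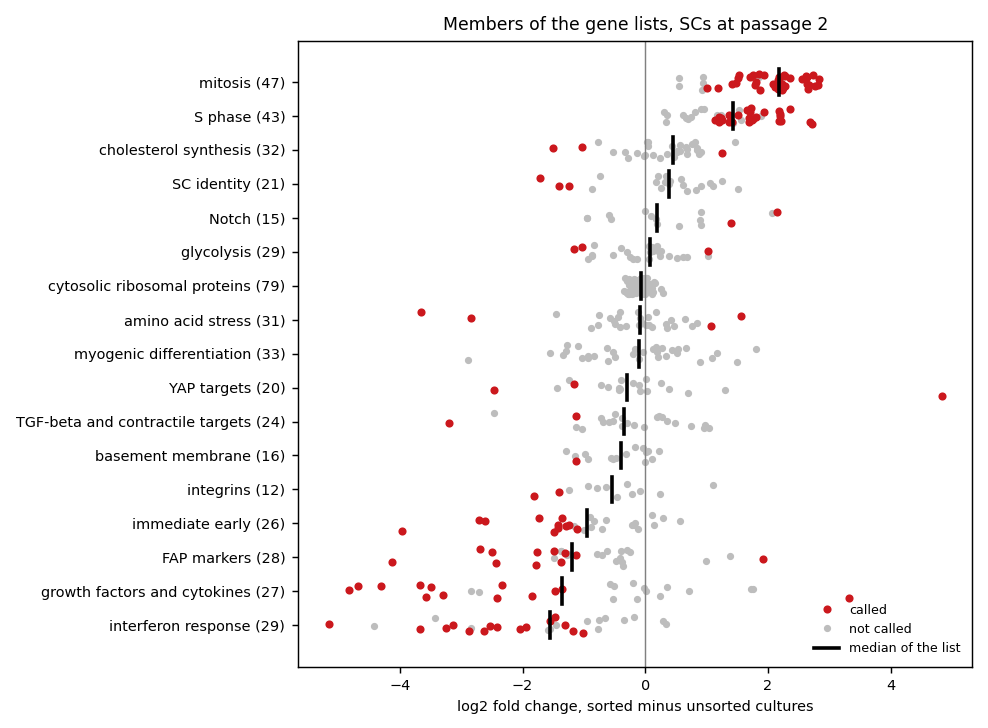
Log2 fold change, sorted minus unsorted, of each tested member of each list with at least 10 members, with called members in red and the median as a black bar. The mitosis and S phase lists lie to the right with medians of 2.18 and 1.43, and the interferon, cytokine and FAP marker lists to the left with medians of -1.55, -1.36 and -1.19.

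Of 21 tested identity genes of SCs none was higher and 3 were lower in sorted cultures by edgeR, with a median log2 fold change of 0.39, while DESeq2 called 3 of the 21 higher and 3 lower. MYF5 was at 149, 140 and 151 CPM against 95.9, 132 and 107 CPM (log2 fold change 0.40, adjusted p = 0.086). ITGA7 was at 273, 229 and 177 CPM against 72.2, 158 and 85.0 CPM and did not pass the test (log2 fold change 1.11, adjusted p = 0.065). The lower members were FGFR1, a receptor of fibroblast growth factors, at 19.0, 41.7 and 37.1 CPM against 95.9, 119 and 108 CPM (log2 fold change -1.72), the syndecan SDC4 (log2 fold change -1.24) and the caveolar protein CAV1 (log2 fold change -1.41).

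No gene of 33 tested for myogenic differentiation was called by edgeR or by DESeq2, with a median of -0.11, and 2 of them had an unadjusted p under 0.05 by edgeR and 5 by DESeq2. The sign of the median rested on single donors, since it was 0.91 without donor 2, 0.45 without donor 10 and -0.82 without donor 5, and it was 0.76 with sex as a covariate and 0.56 in G1 SCs. ACTC1, the actin of early muscle, was at 3328, 1554 and 215 CPM against 543, 926 and 331 CPM (adjusted p = 0.30), and MYLPF, a myosin light chain, at 818, 413 and 105 CPM against 415, 1450 and 686 CPM (log2 fold change -0.93, adjusted p = 0.45). The donors of both groups overlapped in both genes, with donor 10 the lowest. In the Notch list of 15, NOTCH1 (log2 fold change 1.40) and its ligand DLL1 (2.15) were higher and none was lower, with a median of 0.19.

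Genes of adhesion to the substrate were called at shares from 6.25% of the basement membrane genes to 16.7% of the integrins, against 7.51% of all tested genes. ITGB1, the integrin subunit shared by fibronectin and laminin receptors, was at 437, 420 and 426 CPM against 453, 452 and 456 CPM (log2 fold change -0.08, adjusted p = 0.53). Of 12 integrins ITGAV, a subunit of fibronectin and vitronectin receptors (log2 fold change -1.40), and ITGA10 were lower, and of 16 basement membrane genes the laminin chain LAMA4 was (log2 fold change -1.13). In the list of 20 YAP targets CCN2 (log2 fold change -1.16) and the tissue factor F3 (-2.46) were lower and IGFBP3 higher, with a median of -0.30. Of 24 targets of TGF-beta and contractile genes LTBP1, which stores TGF-beta in the matrix (log2 fold change -3.20), and INHBA, a subunit of activins (-1.13), were lower, with a median of -0.34.

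Of the metabolic lists 9.38% (cholesterol synthesis) to 12.9% (amino acid stress) of the members were called, against 7.51% of all tested genes. Of 31 genes of amino acid stress the serine synthesis enzymes PSPH (log2 fold change 1.56) and PHGDH (1.07) were higher, and NUPR1, a stress-induced chromatin protein, and VLDLR, a lipoprotein receptor, lower. NUPR1 was at 46.7, 166 and 81.5 CPM against 762, 504 and 835 CPM (log2 fold change -2.84), and VLDLR at 3.72, 6.50 and 5.21 CPM against 46.8, 43.9 and 103 CPM (log2 fold change -3.65). Of 32 cholesterol synthesis genes IDI1 was higher (1.26) and the regulator SREBF1 (-1.51) and the desaturase FADS2 lower. Of 29 glycolysis genes the lactate transporter SLC16A1 was higher and the glucose transporter SLC2A3 and NDRG1 lower, while GAPDH had a log2 fold change of 0.10. None of 79 ribosomal protein genes was called by edgeR or DESeq2, with a median of -0.07 and an unadjusted p under 0.05 for 14 by edgeR and 13 by DESeq2. Among markers of other cell types, CLDN5 was higher and VWF lower of 4 endothelial genes tested, and PDGFRB and CSPG4 were lower of 7 mural genes, while none of 3 macrophage and none of 5 glial genes was called by edgeR, with 2 and 1 of them at an unadjusted p under 0.05, and 1 of each was lower by DESeq2.

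Fewer genes were called between the same 6 donors at passage 0, before the sort, when FAPs were 78.1%, 54.8% and 65.3% of the cells of donors 5, 6 and 10 and 55.9%, 70.6% and 51.8% of those of donors 1, 2 and 9. The SC counts were then 163, 469 and 274 against 247, 45 and 294, with 920291 UMIs in donor 2, so the numbers of calls are not at equal depth. The test called 35 of 9878 genes (0.354%), 9 higher (0.0911%) and 26 lower (0.263%) in the donors later sorted, and 6 of the 508 lower and 1 of the 347 higher genes of passage 2 were among them. Of these genes 436 and 318 were tested at passage 0, and 330 and 282 of them had the sign of passage 2 before the sort. Over all genes tested at passage 0 the groups did not overlap in 20.8%, against 38.1% at passage 2. By edgeR 1473 of the 9878 had an unadjusted p under 0.05. The S phase and mitosis genes were positive in 41 of 43 and 42 of 47, with medians of 0.33 and 0.23 and 20 of each at an unadjusted p under 0.05. Of 24 growth factors and cytokines 16 had such a p, and 1 was called lower. SFRP4 was then at 602, 851 and 766 CPM against 599, 591 and 816 CPM, with the donors intermixed. CCL2 was at 294, 417 and 401 CPM against 773, 426 and 795 CPM, and CXCL5 at 572, 1021 and 674 CPM against 1314, 2229 and 1305 CPM, with the donors later left unsorted above the others in both genes. MKI67 was at 262, 230 and 225 CPM against 199, 175 and 191 CPM. None of these 4 genes was called at passage 0. G1 SCs were 24.5%, 23.9% and 38.3% against 44.1%, 48.9% and 46.3%, so the groups did not overlap in phase even then (exact two-sided permutation p = 0.1).

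The change of each donor from passage 0 to passage 2 differed between sorted and unsorted cultures in 485 of 10720 genes (4.52%), 212 (1.98%) with the larger rise or smaller fall in sorted and 273 (2.55%) in unsorted cultures, by an interaction term with the donor as a block. Of the 508 lower genes of passage 2, 195 were among them, and of the 347 higher ones, 169. Both comparisons use the same passage 2 cells, so their shared calls are no separate support. The interaction was called for 15 of the interferon genes, 32 of the mitosis genes, 6 of the S phase genes and 6 of the immediate early genes, each in the direction seen at passage 2. For CCL2 the interaction was -3.003 on the log2 scale and for IFI6 -2.63, while for SFRP4 it was -4.69 with an adjusted p of 0.079 and for CXCL5 -2.64 with an adjusted p of 0.11. Without donor 1 63 genes were called, without donor 9 127, without donor 5 322 and without donor 6 864.

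At passage 5 cytokine and interferon genes were again lower in SCs of sorted cultures. Nearly no cell cycle gene was called, though most kept a positive log2 fold change. The test called 435 of 10947 genes (3.97%), with 100 higher (0.913%) and 335 lower (3.06%) in sorted cultures. Among them were 188 of the 508 lower genes and 23 of the 347 higher genes of passage 2. Of the growth factors and cytokines 10 were lower and 1 higher, and of the interferon genes 12 were lower, with a median of -1.03. No S phase gene was called by edgeR or DESeq2 (unadjusted p under 0.05 for 17 and 16 of them) and 1 mitosis gene was by edgeR and 3 by DESeq2, with medians of 0.62 and 0.76. By edgeR 39 of 42 S phase genes and 46 of 47 mitosis genes were positive. G1 SCs were 53.5% to 58.1% in sorted and 66.1% to 72.5% in unsorted cultures (exact two-sided permutation p = 0.1). In addition, 5 of the myogenic differentiation genes were lower in sorted cultures by edgeR and 16 by DESeq2, with a median of -1.60 by edgeR. A difference between passages 2 and 5 was not tested, and donor 2 had only 51 SCs with 770830 UMIs at passage 5. Without donor 9 140 genes were called and without donor 10 234.

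SFRP4 at passage 5 was at 27.2, 73.9 and 29.2 CPM against 893, 925 and 2156 CPM, and CCL2 at 39.8, 168 and 41.9 CPM against 779, 587 and 960 CPM. By then FAPs were 57.0%, 2.04% and 6.10% of the cells of donors 5, 6 and 10 and 55.8%, 94.9% and 84.3% of those of donors 1, 2 and 9. The labels of donors 5 and 6 went against the FAP markers at passage 5, since these genes took a median of 1.45% and 1.41% of the UMIs in their cells called FAPs and 2.05% and 2.12% in those called SCs. SCs of donor 10 held 1.72%, and those of donors 1, 2 and 9 held 0.936%, 1.28% and 1.14%, so all SCs of sorted cultures lay above those of unsorted ones (exact two-sided permutation p = 0.1), and the passage 5 comparison rests on labels in doubt in the sorted group. CXCL5 was at 43.8, 102 and 34.2 CPM against 533, 438 and 580 CPM. IGFBP3 was at 517, 154 and 845 CPM against 75.2, 94.8 and 23.4 CPM, and MKI67 at 56.1, 76.4 and 53.9 CPM against 63.6, 16.3 and 0.953 CPM, where donor 1 lay among the sorted donors. CPM were scaled within each passage, so levels of 1 gene set across passages are values side by side.

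**Figure D5:**
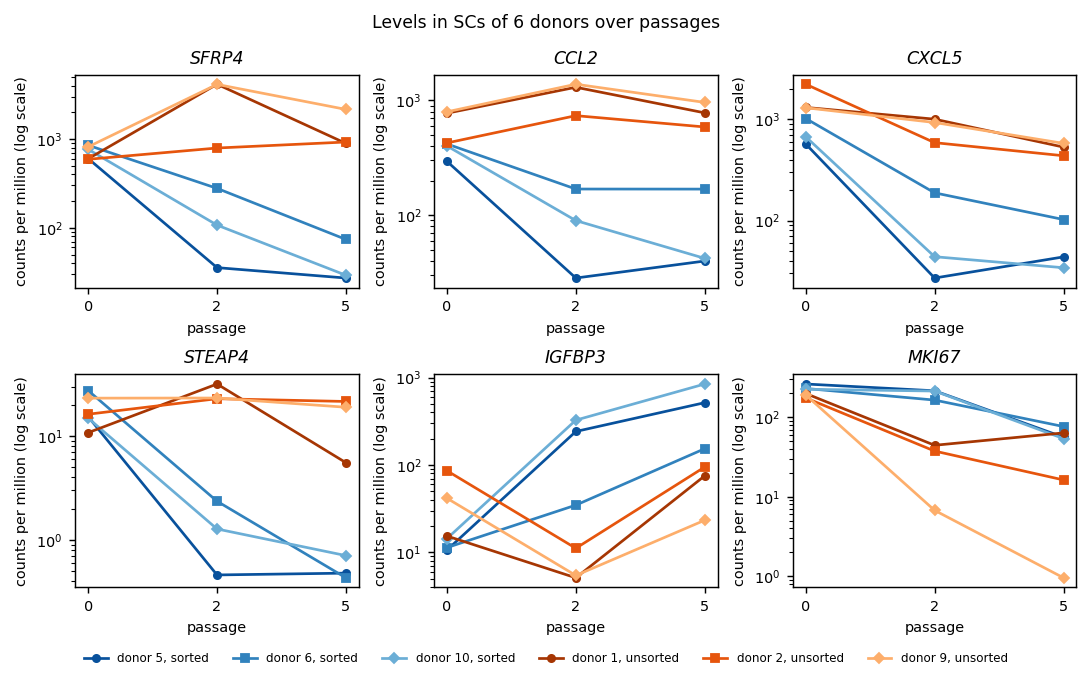
CPM on a log axis of SFRP4, CCL2, CXCL5, STEAP4, IGFBP3 and MKI67 in the SCs of each donor at passages 0, 2 and 5, with sorted and unsorted cultures in separate colours; passage 0 precedes the sort. The lines of SFRP4 run together at passage 0, at 591 to 851 CPM, and lie at 35.6 to 278 against 792 to 4143 CPM at passage 2.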

How the data were processed

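Cells were sequenced with 10x Genomics 3' chemistry, and the authors made the deposited UMI counts with Cell Ranger 6.0.1 on the bovine assembly ARS-UCD1.2 with Ensembl release 101 annotation. They assigned donors with demuxlet and called 2393 of 12210 barcodes (19.6%) doublets at passage 2. The deposited cell table holds 8966 cells of that passage, and no further doublets were removed here. Cell types and phases are those of the deposited annotation, and 17 other columns were not used. The label of the passage 0 record names sorted and unsorted cells together, while the methods place the sort after it. Raw counts were summed per donor (at least 10 cells) and tested with edgeR 4.0.16 (quasi-likelihood test, TMM, filterByExpr, R 4.3.3), and DESeq2 1.42.0 was an alternative. Members, lists and tests were chosen with earlier results of these data known. Named genes were the 12 with the largest fold change per direction with at least 10 CPM and groups that do not overlap, plus called and well expressed members of the lists. Of 634 list entries 531 were tested, 90 fell under the filter and 13 symbols matched no gene. Scripts were tested on simulated data. Intervals cover counting error only.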

Additional observations from a re-analysis of the deposited data

Results flagged for a closer look

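In the genes below the change of SCs from passage 0 to passage 2 differed between sorted and unsorted cultures by edgeR's interaction term with the donor as a block (Benjamini-Hochberg adjusted p under 0.05, absolute value over 1), which held for 485 genes in all. Values are the interaction on the log2 scale, sorted minus unsorted. Among secreted factors it was -3.98 for CCL20, -3.003 for CCL2, -2.49 for IL6 and -1.55 for WNT5A. Among interferon response genes it was -4.41 for OAS1Y, -2.73 for IFIH1, -2.63 for IFI6, -1.85 for IRF1, -1.16 for IRF7 and -1.13 for PSMB8. Among immediate early genes it was -4.11 for FOSB, -2.85 for NR4A1, -2.39 for NR4A2 and -1.16 for EGR1.

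Some receptors, channels and enzymes with the largest fold changes at passage 2 were also in this set, with -4.93 for RAMP3, -4.53 for STEAP4, -4.44 for GPR84, -3.01 for SCNN1D and -2.95 for GPX3. The channel TRPA1 (-2.93, adjusted p = 0.14) and the transporter SLC11A1 (-3.10, adjusted p = 0.053) were not. At the cell surface and in the matrix the value was -2.14 for VLDLR, -2.02 for F3, -1.87 for LAMA4, -1.59 for ITGAV, -1.42 for CAV1 and -1.11 for FGFR1, and it was 1.69 for THY1. For the lipid regulator SREBF1 it was -1.28, and for IDI1 1.09. Genes whose SC level rose more or fell less in sorted cultures were IGFBP3 at 6.05, PSPH at 2.03 and the cell cycle genes UBE2C at 2.84, POLQ at 2.80, ESCO2 at 2.77, GTSE1 at 2.69, FAM83D at 2.57, CENPF at 2.48, KNTC1 at 2.29, BIRC5 at 2.24 and CDK1 at 1.96.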

How the results depend on the processing

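At passage 2 the 855 calls became 203 among G1 SCs alone and ranged from 1 (without donor 1) to 1114 (without donor 2) over the 6 fits that left out 1 donor, 109 without donor 9 and 298 without donor 5. Among the 77 called genes given with a fold change the sign turned once, for CDK1 in G1 SCs (-0.43), and that of ITGB1, which was not called, there too (0.045). Of all 855 called genes, 739 of 760 tested kept their sign in G1 SCs and 807 of 825 after subtraction at the looser FAP limit. DESeq2 called 1135 genes, and without the low-count filter 807 were called while the median over all genes rose by 0.11. Calls among list members (143) were 74 with sex as a covariate, 92 after subtraction at the looser FAP limit and 29 in G1 SCs, and 0 to 171 with 1 donor left out. At passage 0 the 35 calls became 76 with DESeq2, 76 without the filter, 20 with age class and 173 with sex as a covariate, and 7 to 69 with 1 donor left out. The interaction's 485 calls became 249 without the donor block and 63 to 864 with 1 donor left out. At passage 5 the 435 calls became 256 with thinned counts, 207 with sex as a covariate and 140 to 488 with 1 donor left out. The mean lowest marker ratio that bounds FAP RNA in unsorted SCs, 18.3%, was 15.5% to 20.4% with 1 donor left out, 7.19% at the counting limit and 9.97% there with FAPs of the same donor. In sorted SCs, 1.24% was 1.13% to 1.31% with 1 donor left out, 8.75% with only markers giving 100 UMIs at 1% FAP RNA, 8.85% with FAPs of the same donor, 28.1% with both, 2.05% at the counting limit and 2.86% there with FAPs of the same donor. The counting limit was chosen after seeing the data. Fewer SCs and UMIs in the unsorted donors limit the low genes there.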
